A study of Mus musculus with 8 samples.

Results

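The clustered protocadherins are cell-surface adhesion molecules encoded by the neighbouring alpha, beta and gamma arrays on mouse chromosome 18. Members were the protein-coding genes of the mm9 annotation on that chromosome whose symbol begins with Pcdha, Pcdhb or Pcdhg. This rule found 24 of 22359 protein-coding genes, with 46 annotated transcripts. Transcription starts of 1 gene within 1 kb of each other were merged, which gave 40 member starts among 30313 starts of all protein-coding genes. The annotation places most alpha exons in the gene record Pcdha11 and all gamma exons in Pcdhgc5, so starts are named here by transcript. There were 10 alpha starts in 2 genes (Pcdha11 and Pcdha3), 21 beta starts in 21 genes and 9 gamma starts in 1 gene. For comparison, RefSeq lists 14 alpha, 22 beta and 21 gamma protein-coding genes, and variable exons without a start in the mm9 annotation were not analysed here.

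Each variable exon of the arrays has its own promoter. In the alpha and gamma arrays the chosen variable exon is spliced to constant exons shared by the whole array, while beta genes lack constant exons. Neurons switch on different sets of these promoters, and the combination of surface proteins gives each neuron an identity. The C-type exons, Pcdhac1 and Pcdhac2 at the end of the alpha array and Pcdhgc3, Pcdhgc4 and Pcdhgc5 at the end of the gamma array, are regulated differently from the rest. Promoter choice is known to involve DNA methylation, the insulator protein CTCF and cohesin. H3K4me3, trimethylation of lysine 4 of histone H3, marks active and poised promoters, and menin, the product of Men1, is a subunit of MLL complexes that write this mark.

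H3K4me3 ChIP-Seq was done in mESCs (mouse embryonic stem cells) and in PILECs, pancreatic islet-like endocrine cells derived from them in culture, to ask where menin is needed for the mark. The wt cells were the TC-1 line and the menin-null cells the Men1-ko line 3.2N, both of the 129S6/SvEvTac background and each a single line. The mESCs were grown on irradiated embryonic fibroblasts, which were removed before use. Each of the 4 conditions (wt mESCs, menin-null mESCs, wt PILECs and menin-null PILECs) had 1 H3K4me3 library and 1 input library, 8 libraries in all, so no difference has a replicate check, and genotype cannot be told apart from cell line or library.

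Tags within 1 kb of a start were counted and divided by the library total to give RPM (tags per 1000000 tags of the library). A start was tested where at least 10 tags fell in both libraries of a comparison together, and was called higher or lower where the RPM ratio was at least 2-fold and its exact 95% interval excluded 1. The same rule against the input, in the upward direction, called a start enriched. Intervals are given in parentheses, cover counting error only, for tags without molecular identifiers, and compare libraries, not conditions. The comparisons share libraries and are not independent of each other.

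The H3K4me3 libraries held 2432377 tags in wt and 3517028 in menin-null mESCs, and 18773635 in wt and 17682677 in menin-null PILECs, and the inputs 3744616 to 19016697. The longest stretch at Men1 without a tag in any menin-null library spanned 2.5 kb (mm9 chromosome 19, 6336500 to 6338999). The 4 wt libraries held 1 to 43 tags each there. This stretch was chosen for holding 0 tags in the 4 menin-null libraries, so those counts are no separate check of the genotype. The share of H3K4me3 tags at protein-coding starts was 40.2% in wt and 47.8% in menin-null mESCs, and 39.4% in wt and 36.9% in menin-null PILECs. Scaling by these tags instead of the totals would shift every log2 ratio down by 0.25 for menin-null over wt mESCs, and up by 0.09 for menin-null over wt PILECs, 0.03 for wt PILECs over wt mESCs and 0.37 for menin-null PILECs over menin-null mESCs. Scaling by tags over 10 kb from any start would shift them the other way, up by 0.29 for the first comparison and down by 0.09, 0.04 and 0.42 for the others. Of 8 pluripotency genes, 6 were called lower in wt PILECs than in wt mESCs and 7 in the menin-null pair, with Pou5f1 at 55.9 RPM in wt and 78.5 in menin-null mESCs, and 3.68 in wt and 2.43 in menin-null PILECs. Of 10 islet genes, 5 were enriched in wt and 3 in menin-null mESCs, 4 in PILECs from wt and 5 in those from menin-null cells, and 0 were called higher in PILECs. Pdx1 and Isl1 were called lower there in both genotypes, and the hormone genes Ins1, Ins2, Gcg and Iapp held at most 21 tags in any library. Of 8 neural genes found, 6 were enriched in each mESC library and all 8 in each PILEC library, and 4 were called higher in PILECs of each genotype, with 0 called lower. Of 8 fibroblast genes, 4 were enriched in wt and 3 in menin-null mESCs and 7 in each PILEC library, 2 were called higher and 1 lower in wt PILECs than in wt mESCs, and 3 higher and 1 lower in the menin-null pair. Over all tested starts, 51.4% were enriched in wt and 50.8% in menin-null PILECs, and between stages 5.61% were called higher and 12% lower in wt, and 4.57% higher and 16.7% lower in menin-null cells. The part of cell composition in the results below was not tested, and a change in the share of marked cells cannot be told apart from a change in the mark per cell.

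Summed over the 40 starts, H3K4me3 was above input in every condition, and the mark was uneven along the arrays. The 40 starts together held 354 tags in wt and 479 in menin-null mESCs, and 3545 in wt and 3286 in menin-null PILECs. Summed RPM was 145.5 in wt and 136 in menin-null mESCs, and 189 in wt and 186 in menin-null PILECs. These sums were 3.02, 2.90, 5.04 and 5.05 times those of the matching inputs in the same order. The 21 beta starts alone held 1.29 times input in wt and 0.69 times in menin-null mESCs, with 1 and 0 of them enriched. Tags over 10 kb from any start made up 35.5% of H3K4me3 tags in wt and 29.1% in menin-null mESCs. In the matching inputs they made up 62.4% and 63.0%. Scaled by library totals, places far from starts thus lie below 1 times input, and a value below 1 is not a value below background.

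Of the 40 starts, 10 were enriched over input in wt and 11 in menin-null mESCs, and 22 in wt and 27 in menin-null PILECs. Among all tested protein-coding starts, the shares enriched were 78.8%, 80.9%, 51.4% and 50.8% in the same order. The PILEC libraries are the deeper ones, and 21 member starts held enough tags to be tested in each mESC pair against 40 in each PILEC pair. As shares of all starts, tested or not, 25.0%, 27.5%, 55.0% and 67.5% of the members and 47.2%, 47.6%, 48.7% and 48.0% of all protein-coding starts were enriched. With all libraries thinned to 2432377 tags, 9 starts were enriched in PILECs of wt and 10 in those of menin-null origin. The 10 and 11 counted in mESCs were before thinning, with the menin-null and input libraries at larger totals. Set beside each other, these counts therefore do not compare the stages at equal depth. The median member start held 1.64 RPM in wt and 1.56 in menin-null mESCs, and 2.21 in wt and 2.26 in menin-null PILECs, against 3.29, 2.84, 1.44 and 1.30 over all protein-coding starts.

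**Figure D1:**
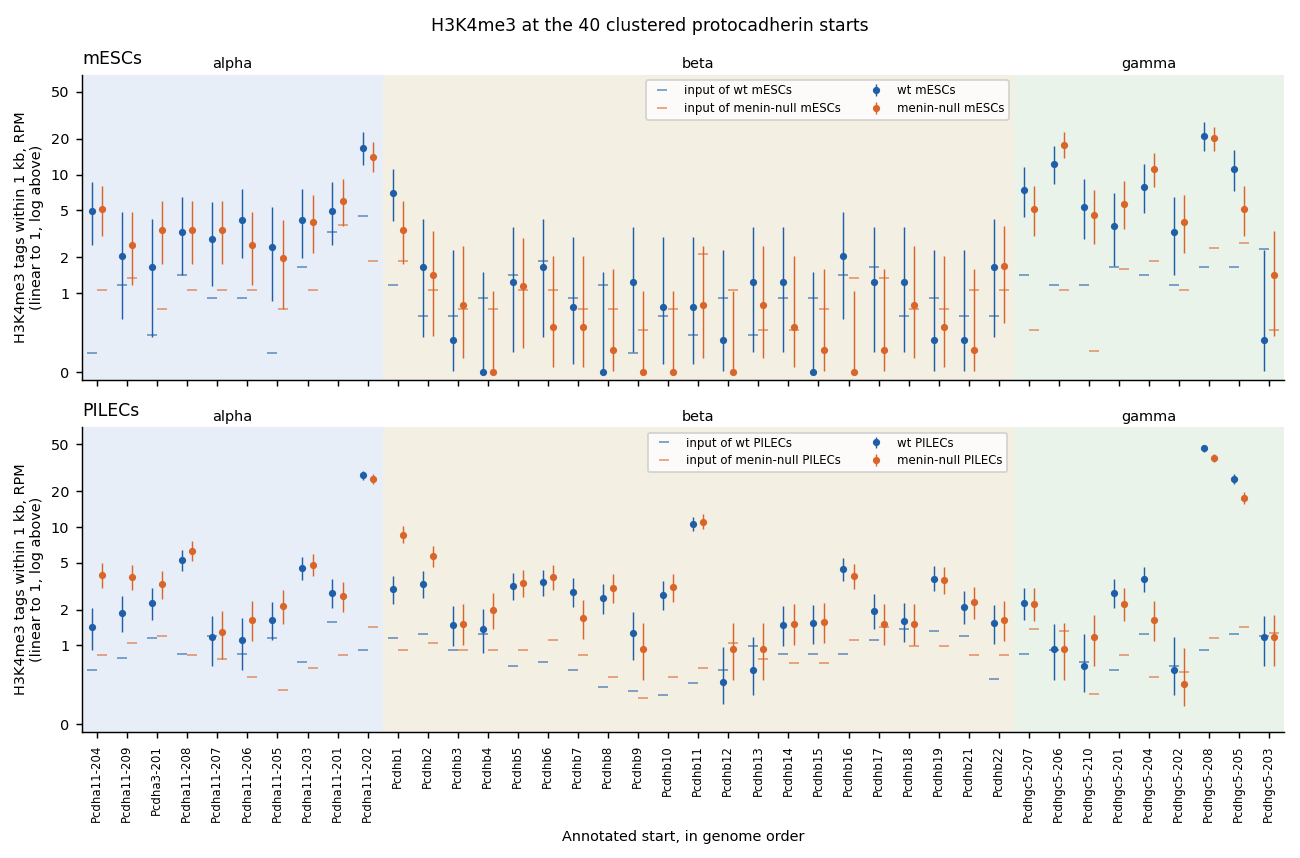
H3K4me3 at each of the 40 member starts in genome order, in RPM within 1 kb of the start, for the 4 conditions with 1 library each. The last alpha start (Pcdha11-202) and the gamma starts Pcdhgc5-208 and Pcdhgc5-205 stand above the others in both PILEC libraries, and Pcdhgc5-206 is high in mESCs alone.

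In PILECs the 3 highest starts lay at the 3′ ends of the alpha and gamma arrays, where the C-type exons lie. In mESCs Pcdhgc5-206, the second gamma start, was also among the highest, at 12.3 RPM in wt and 17.9 in menin-null cells. RefSeq orders Pcdhac1 and Pcdhac2 last among alpha genes and Pcdhgc3, Pcdhgc4 and Pcdhgc5 last among gamma genes, but the mm9 annotation does not give these names to single starts, so the last 2 alpha and last 3 gamma starts are described by position. Pcdhgc5-208, the third start from the gamma end (chromosome 18, 37966064), held 21.4 RPM in wt and 20.2 in menin-null mESCs, and 46.4 in wt and 38.6 in menin-null PILECs. It was the highest member start in all 4 libraries.

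Pcdha11-202, the last alpha start (37303623), held 16.9 RPM in wt and 14.2 in menin-null mESCs, and 27.4 in wt and 25.6 in menin-null PILECs. Pcdhgc5-205, the next-to-last gamma start (37974733), held 11.1, 5.12, 25.5 and 17.5 RPM in the same order. Both were higher in each PILEC library than in either mESC library. Their neighbours at the array ends were much lower within 1 kb of the start: the final gamma start, Pcdhgc5-203, held 0.41 to 1.42 RPM, and Pcdha11-201, next to last in alpha, held 2.60 to 5.97 RPM. Between 1 and 3 kb after its start, Pcdhgc5-203 held 7.81 RPM in wt and 7.68 in menin-null mESCs, enriched over input in both. In PILECs it held 1.07 and 0.90 RPM there. Position at the end of an array was therefore not matched by 1 level of mark around the start.

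The first coding exons at these ends differed from the other members in sequence. The best identity of the last 2 alpha and last 3 gamma exons with any other member exon was 52.6% to 55.9%, while the median identity within a family was 74.5% for alpha, 72.6% for beta and 60.4% for gamma. Pcdhgc5-201, which is not at an alpha or gamma array end, was as unlike the rest, with a best identity of 55.3%. Pcdhb1, the first beta gene, was nearly so, with 57.1%. The closest pair was Pcdhb7 and Pcdhb9, with 88.8% identity. Between 80.7% and 100% of the 36-base words around each start occurred once in the mm9 genome, so loss of tags to near-identical copies differs among members.

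Pcdhb11 was the highest beta start in PILECs. It held 2 tags in wt and 3 in menin-null mESCs, and 199 in wt and 197 in menin-null PILECs, or 0.82, 0.85, 10.6 and 11.1 RPM. No other beta start passed 10 RPM in any library. Pcdhb1, the first beta gene (37424652), held 6.99 RPM in wt and 3.41 in menin-null mESCs, and 2.98 in wt and 8.65 in menin-null PILECs, and was the only beta start above 5 RPM in wt mESCs. Pcdhb22, the last beta gene, held 1.54 to 1.71 RPM in the 4 libraries.

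Menin-null and wt mESCs were first compared at the member starts. Summed H3K4me3 differed by a log2 ratio of −0.10 (−0.30 to 0.11), an interval that includes 0. Of 20 starts tested, 0 were called higher and 1 lower, beside 0.943% of all tested starts called higher and 0.943% called lower. The median log2 ratio, with 1 tag added on average, was −0.09 over the members and 0.12 over all starts.

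The start called lower was Pcdhgc5-205, with 27 tags in wt and 18 in menin-null mESCs (log2 ratio −1.12, interval −2.06 to −0.20). It was not called with windows of 500 bp on each side or at a 3-fold threshold. The alpha starts summed to 47.3 RPM in wt and 46.6 in menin-null mESCs (log2 −0.02, −0.37 to 0.34), and the gamma starts to 72.8 and 75.1 RPM (0.04, −0.24 to 0.33). The beta starts held 62 tags in wt and 51 in menin-null mESCs, or 25.5 and 14.5 RPM (−0.81, −1.38 to −0.26). Their inputs held 84 and 79 tags, so the beta sum was 1.29 times input in wt and 0.69 times in menin-null mESCs, and with windows of 2 kb on each side the beta ratio was 0.01.

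In PILECs the summed mark was again nearly equal between genotypes (log2 −0.02, −0.09 to 0.05), but the ratios of the 3 arrays did not share 1 sign. Of 40 starts tested, 3 were called higher in menin-null PILECs, beside 1.52% of all tested starts, and 1 was called lower, beside 1.46%. The median log2 ratio was 0.08 over the members and −0.04 over all starts.

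Pcdhb1 held 56 tags in wt and 153 in menin-null PILECs (log2 1.54, 1.09 to 2.00). Pcdha11-204, the first start of the alpha array (37089939), held 27 and 69 tags (1.44, 0.78 to 2.14). Pcdha11-209, the next alpha start, held 35 and 67 tags (1.02, 0.41 to 1.66). These 3 starts are the ones called higher, and 2 of them are the first 2 starts of the alpha array. Pcdhgc5-204, a gamma start at 37915427, was the one called lower, with 68 tags in wt and 29 in menin-null PILECs (−1.14, −1.82 to −0.50), and it was not called with windows of 500 bp or 2 kb on each side or at 3-fold.

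Sums over groups of starts were also compared. All 8 alpha starts other than the last 2 had a ratio above 0, but only the 2 called higher had a single interval excluding 0. The 8 starts share the same libraries, so their common sign is no replicate check. Their sum, 361 tags in wt and 480 in menin-null PILECs, had a log2 ratio of 0.50 (0.30 to 0.70). The first 3 alpha starts held 105 and 194 of these tags (log2 0.97, 0.62 to 1.33) and thus carried much of the difference. This group contains the 2 alpha starts called higher in the same comparison, so its ratio and interval are no added support. The last 2 alpha starts held 30.2 RPM in wt and 28.2 in menin-null PILECs. The beta starts had a log2 ratio of 0.22 (0.10 to 0.34), and without Pcdhb1 of 0.09 (−0.04 to 0.22). Pcdhb1 thus carried much of the beta difference.

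The gamma starts held 1580 tags in wt and 1169 in menin-null PILECs (log2 −0.35, −0.46 to −0.24). The last 3 gamma starts had a log2 ratio of −0.35 (−0.47 to −0.23), and the other 6 of −0.33 (−0.64 to −0.02). Those 6 held 208 tags in wt and 156 in menin-null PILECs, of which Pcdhgc5-204 held 68 and 29. That start thus carried much of the difference of the 6. The differences of these gamma sums are below the 2-fold rule, and their intervals cover counting error alone. With PILEC libraries thinned to the smallest library, 1 start was called higher and 0 lower, and the alpha log2 ratio of 0.16 (0.03 to 0.29) became −0.05.

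**Figure D2:**
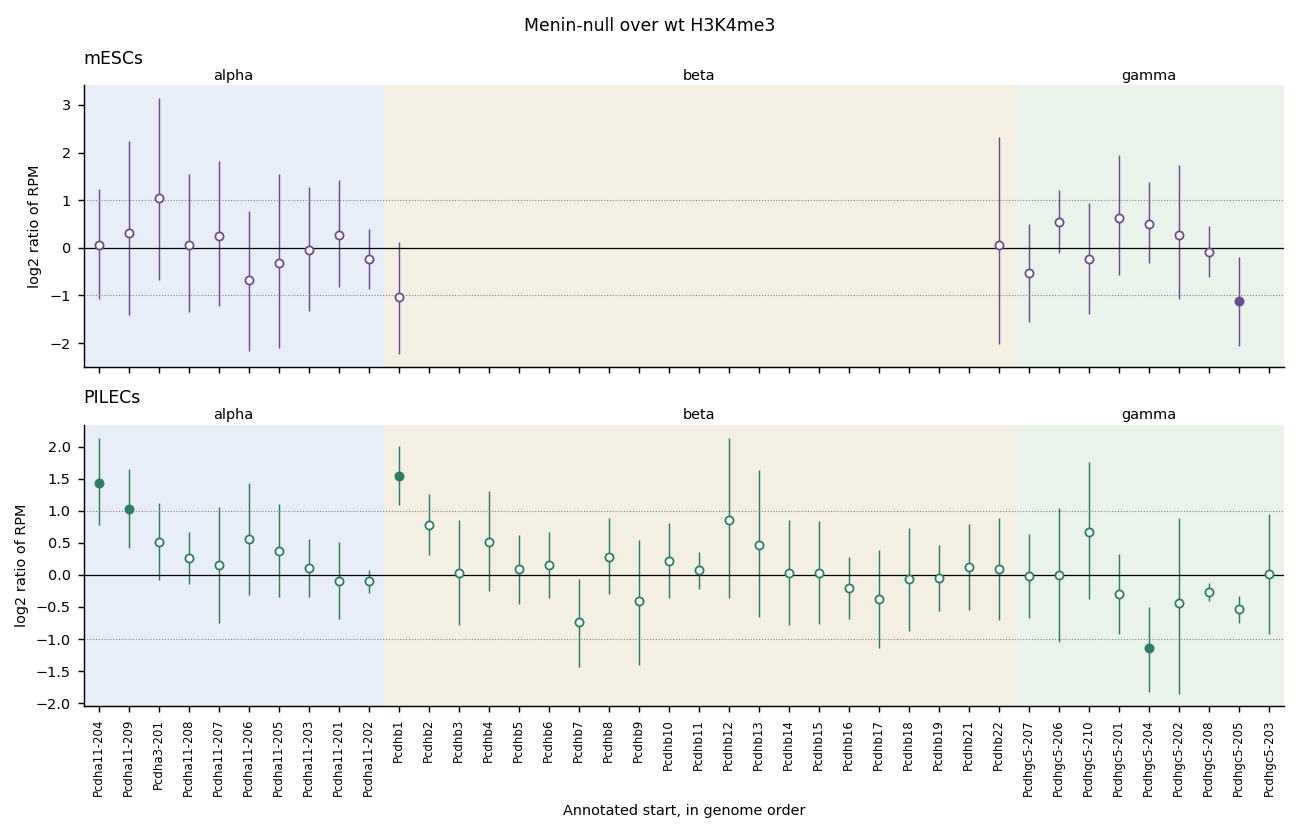
Log2 ratio of H3K4me3 RPM in menin-null over wt cells at each tested member start, in mESCs and PILECs, with exact 95% intervals for counting error. Filled points are called (at least 2-fold, interval excluding 0 on this scale); in PILECs these are Pcdha11-204, Pcdha11-209 and Pcdhb1 above 0 and Pcdhgc5-204 below 0.

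The stages were then compared. Summed H3K4me3 was higher in PILECs by a log2 ratio of 0.38 (0.22 to 0.54) in wt and 0.45 (0.31 to 0.59) in menin-null cells, while the summed inputs at the same starts differed by −0.37 and −0.35. Without Pcdhgc5-208, Pcdha11-202 and Pcdhgc5-205 the log2 ratio was −0.10 in wt and 0.11 in menin-null cells. These 3 starts are the highest in PILECs, so leaving them out favours a lower ratio. It cannot show that the sums rest on them. The remaining starts also changed in opposite directions. The beta starts rose by 1.12 in wt and 2.15 in menin-null cells, and the first 6 gamma starts changed by −1.85 and −2.45. Divided by input, the ratios over all members were 0.74 in wt and 0.80 in menin-null cells. Over all protein-coding starts the summed inputs differed by −0.79 in wt and −0.61 in menin-null cells, and summed H3K4me3 by −0.02 and −0.36. Input division therefore raises the stage ratio over all starts as well, and the rise it gives is not particular to the members.

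In wt cells 5 starts were called higher in PILECs, beside 5.61% of all tested starts, and 8 lower, beside 12%. In menin-null cells 12 were called higher, beside 4.57%, and 8 lower, beside 16.7%. These menin-null counts changed to 5 and 5 with libraries thinned to equal size, and to 19 and 4 with scaling by tags at starts, and 6 were called higher with windows of 2 kb on each side. With thinned libraries the number called lower in wt fell from 8 to 3. The median log2 ratio over the members was 0.40 in wt (0.10 with 1 tag added to each count) and 0.85 in menin-null cells, against 0.02 and −0.06 over all starts. Beta starts made up 3 of the 5 starts called higher in wt cells, and 1 beta start, Pcdhb1, was among the 8 called lower there.

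Of the 12 starts called higher in menin-null PILECs, 11 were beta starts and 1 was Pcdhgc5-205. Pcdhb11 had a log2 ratio of 3.69 (1.82 to 6.74) in wt and 3.71 (2.14 to 6.0) in menin-null cells. Pcdhb19 held 1 tag in wt and 2 in menin-null mESCs, and 69 in wt and 63 in menin-null PILECs (log2 3.16 and 2.65). Pcdhb8 held 0, 1, 47 and 54 tags in the same order, which is 2.03-fold higher in wt PILECs when the 0 is set to its floor of 3 tags, with a lower interval bound of 0.67 on the log2 scale. These 3 beta genes were called higher in both genotypes.

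The other beta starts called higher in menin-null PILECs alone were Pcdhb1 (log2 1.34), Pcdhb2 (1.99), Pcdhb5 (1.58), Pcdhb6 (2.74), Pcdhb21 (3.03), Pcdhb4, Pcdhb10 and Pcdhb16. The last 3 held 0 tags in menin-null mESCs and were 2.32-fold, 3.65-fold and 4.51-fold higher against the floor of 3 tags, with lower interval bounds of 0.84, 1.52 and 1.84 on the log2 scale. Pcdhb1 was called in opposite directions in the 2 genotypes, lower in wt PILECs (−1.23, −2.03 to −0.35) and higher in menin-null PILECs (1.34, 0.50 to 2.33). Whether the stage differences differ between genotypes was not tested for single starts.

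Summed over the array, the 21 beta starts held 62 tags in wt and 51 in menin-null mESCs, and 1037 in wt and 1139 in menin-null PILECs, or 25.5, 14.5, 55.2 and 64.4 RPM. The log2 ratio of PILECs over mESCs was 1.12 (0.75 to 1.51) in wt and 2.15 (1.75 to 2.59) in menin-null cells. Enriched beta starts numbered 1 in wt and 0 in menin-null mESCs, and 12 in wt and 13 in menin-null PILECs, but only 4 and 3 beta starts held enough tags to be tested in mESCs against 21 in each PILEC pair. The PILEC counts are 57.1% and 61.9% of the beta starts, beside 48.7% and 48.0% of all protein-coding starts. With windows of 2 kb on each side the log2 ratios fell to 0.24 in wt and 0.41 in menin-null cells.

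Gamma starts changed in both directions between stages. The last 3 gamma starts summed to 32.9 RPM in wt and 26.7 in menin-null mESCs, and 73.1 in wt and 57.3 in menin-null PILECs, a log2 ratio of 1.15 (0.83 to 1.5) in wt and 1.10 (0.79 to 1.42) in menin-null cells. The other 6 gamma starts summed to 39.9, 48.3, 11.1 and 8.82 RPM, a log2 ratio of −1.85 (−2.20 to −1.48) in wt and −2.45 (−2.78 to −2.13) in menin-null cells. The gamma total hides this, at 0.21 (−0.02 to 0.44) and −0.18 (−0.38 to 0.01). The gamma inputs differed by −0.65 in wt and −0.40 in menin-null cells, so relative to input the menin-null total had the opposite sign.

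Pcdhgc5-206, the second gamma start (37885360), had the largest decrease. It held 30 tags in wt and 63 in menin-null mESCs, and 18 in wt and 17 in menin-null PILECs, or 12.3, 17.9, 0.96 and 0.96 RPM. Its log2 ratio was −3.69 (−4.62 to −2.80) in wt and −4.22 (−5.09 to −3.43) in menin-null cells. Pcdhgc5-207, Pcdhgc5-210, Pcdhgc5-204 and Pcdhgc5-202 were also called lower in both genotypes, with log2 ratios of −1.11 to −2.84 in wt and −1.18 to −2.97 in menin-null cells, and Pcdhgc5-201 in menin-null cells (−1.33). Pcdhgc5-205 was called higher in both (1.20 and 1.78), and Pcdhgc5-208 was called higher in wt (1.12) and reached 0.93 in menin-null cells, below the 2-fold rule.

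The alpha array summed to 47.3 RPM in wt and 46.6 in menin-null mESCs, and 49.4 in wt and 55.3 in menin-null PILECs, a log2 ratio between stages of 0.06 in wt and 0.25 in menin-null cells. Pcdha11-204 was called lower in wt PILECs (log2 −1.78) and Pcdha11-206 likewise (−1.88), while in menin-null PILECs Pcdha11-207 (−1.39) and Pcdha11-201 (−1.20) were. The last start, Pcdha11-202, had log2 ratios of 0.70 (0.24 to 1.20) and 0.85 (0.42 to 1.30), below the 2-fold rule. Its inputs held 4.47 RPM in wt and 1.87 in menin-null mESCs, and 0.95 in wt and 1.43 in menin-null PILECs, so the log2 ratio over input went from 1.91 to 4.86 in wt and from 2.93 to 4.16 in menin-null cells.

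**Figure D3:**
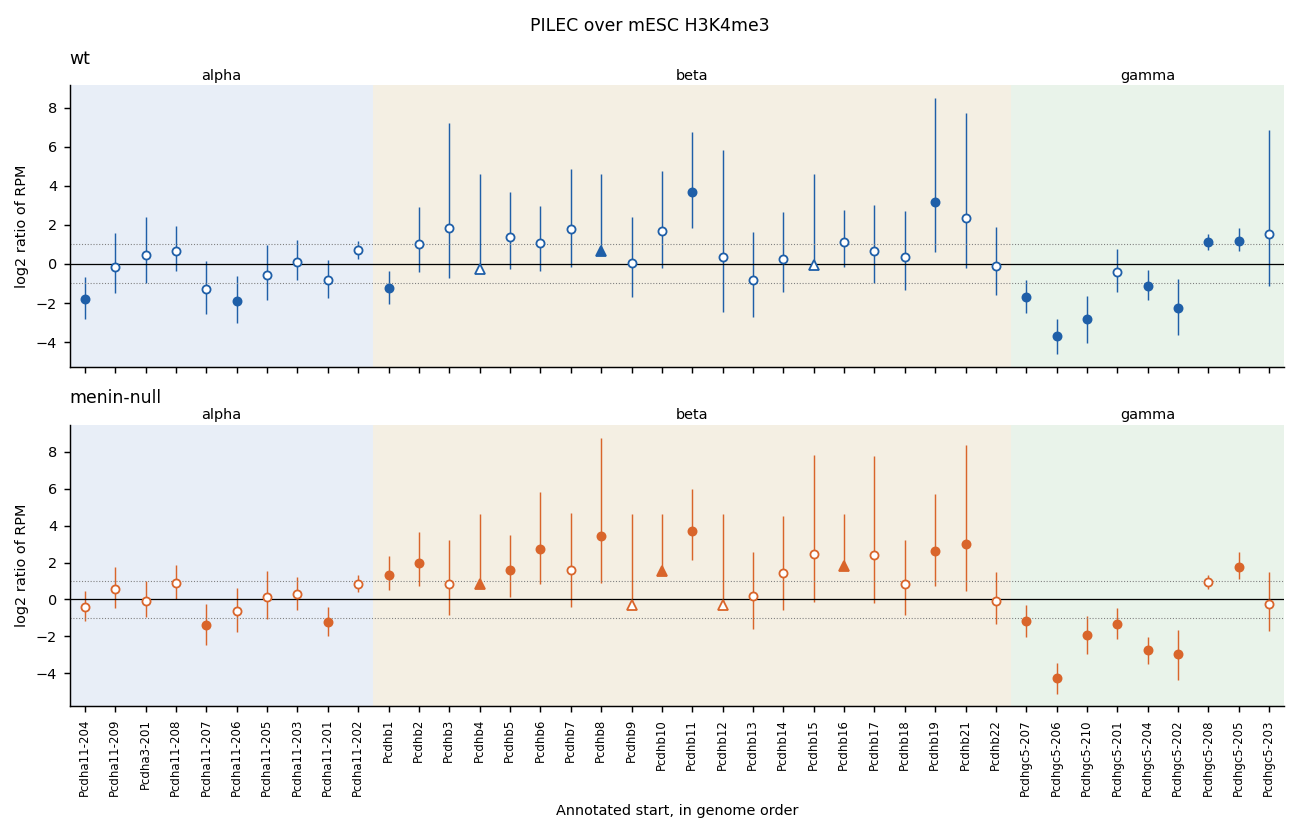
Log2 ratio of H3K4me3 RPM in PILECs over mESCs at each tested member start, in wt and menin-null cells, with exact 95% intervals. Triangles are lower interval bounds where the mESC library held 0 tags, with lines drawn to a fixed height because the upper bound is not defined, and filled symbols are called; the beta starts lie mostly above 0 and the first 6 gamma starts below it.

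The position of the highest H3K4me3 RPM relative to the start, not divided by input, also differed between stages in the beta array. Mean H3K4me3 per beta start peaked 1750 to 2000 bases after the start in mESCs, at 1.02 RPM per 250-bp bin in wt and 1.27 in menin-null cells, and 0 to 250 bases after it in PILECs, at 0.82 and 1.06 RPM. The alpha and gamma profiles peaked within 500 bases after the start in all 4 libraries. The beta bin of the mESC peak held 13.6 CpG dinucleotides on average and the bin of the PILEC peak 4.86. Beta genes are single-exon (20 of 21), with a median coding length of 2388 bases, so the mESC peak lay inside the coding exon.

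The input libraries were also raised there in mESCs, in a window chosen from the profiles around the peak, so the beta signal has to be read against them. Between 1.5 and 2.25 kb after the beta starts the inputs held 25.4 RPM in wt and 24.3 in menin-null mESCs, and 6.26 in wt and 6.02 in menin-null PILECs. H3K4me3 held 48.1, 61.7, 8.31 and 8.37 RPM in the same order. Over input this was 1.89-fold (1.44 to 2.48), 2.54-fold (1.98 to 3.28), 1.33-fold (1.04 to 1.70) and 1.39-fold (1.08 to 1.80). The log2 ratio of PILECs over mESCs was −2.53 in wt and −2.88 in menin-null cells for H3K4me3, and −2.02 and −2.01 for the inputs. Most of the fall between stages therefore also occurred in the inputs.

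In the window 1 to 3 kb after the start, 3 of 21 beta starts were enriched over input in wt and 7 in menin-null mESCs, and 1 in wt and 1 in menin-null PILECs. Over all members the numbers were 5 of 29 tested, 14 of 33, 5 of 40 and 6 of 40, beside 34.4%, 38.7%, 25.3% and 22.9% of all tested windows. As shares of all starts, tested or not, these were 12.5%, 35.0%, 12.5% and 15% of the members and 11.6%, 13.4%, 23.7% and 21.4% of all protein-coding starts. Among beta starts with at least 10 tags in the start and downstream windows together, 9 of 11 had more tags downstream than at the start in wt mESCs and 15 of 16 in menin-null mESCs, against 1 of 21 in wt PILECs and 0 of 21 in menin-null PILECs. Over all protein-coding starts the shares were 6.09%, 6.66%, 21.1% and 21.2%. The beta inputs also held more tags downstream than at the start in mESCs, 153 and 84 in wt and 127 and 79 in menin-null cells, and all beta starts but Pcdhb1 held at most 6 tags at the start in either mESC library, so they reached 10 tags through the downstream window.

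**Figure D4:**
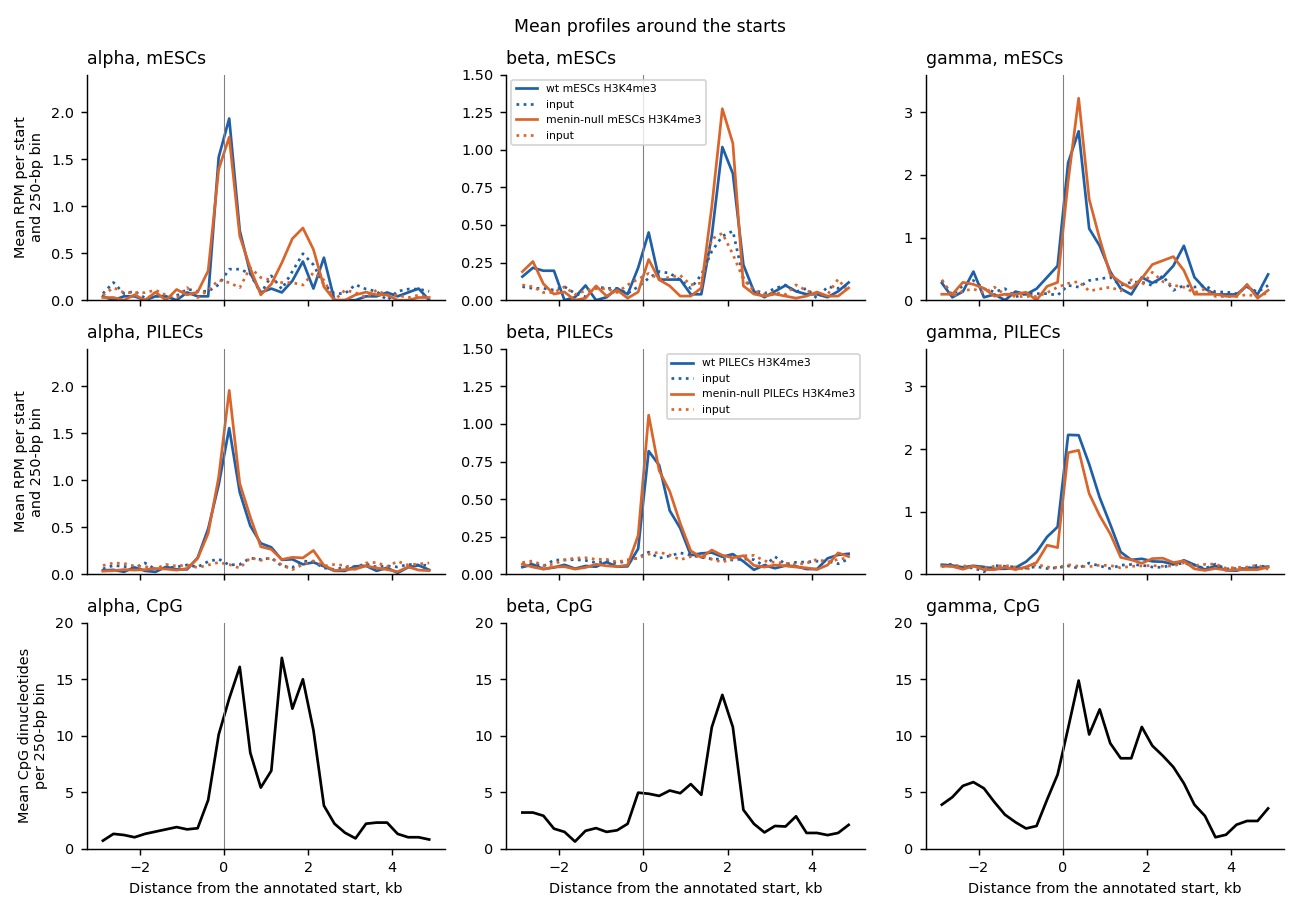
Mean H3K4me3 and input (RPM per start and 250-bp bin) and mean CpG count per bin by distance from the start, for the alpha, beta and gamma arrays. The beta profile peaks 1750 to 2000 bases after the start in mESCs, where the mESC inputs are also raised, and at the start in PILECs.

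Across the 40 starts, those with more CpG dinucleotides within 1 kb held more H3K4me3 in mESCs. Spearman's rho between CpG count and H3K4me3 RPM was 0.83 in wt and 0.90 in menin-null mESCs, and 0.23 in wt and 0.28 in menin-null PILECs, and 0.45, 0.47, 0.24 and 0.15 in the inputs. These are descriptions over 40 starts of 1 cluster, which share libraries and base composition. The median CpG count was 55 at alpha, 30 at beta and 54 at gamma starts, and the beta starts had both the fewest CpG dinucleotides and the lowest median H3K4me3 in mESCs. Within the arrays the values were mixed: rho was 0.53 in wt and 0.44 in menin-null mESCs, and 0.68 in wt and 0.54 in menin-null PILECs, over the 10 alpha starts. Over the 21 beta starts it was 0.30, 0.67, 0.015 and 0.072 in the same order, and over the 9 gamma starts 0.87, 0.87, 0.75 and 0.60. The lower values in PILECs over all 40 starts were therefore not seen within the alpha array. In the inputs rho reached 0.66 in wt and 0.57 in menin-null mESCs over the alpha starts, above the H3K4me3 values, and 0.77 in menin-null mESCs over the gamma starts.

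Genes related to the cluster were examined from lists, to be read beside the shares of all tested starts given above: 0.943% called in each direction between genotypes in mESCs, 1.52% higher and 1.46% lower in PILECs, and 78.8%, 80.9%, 51.4% and 50.8% enriched. With so few listed genes, a count of 0 between genotypes does not set a list apart from these shares. Of 18 regulators of protocadherin promoters, which include Ctcf, the cohesin subunits and the DNA methyltransferases, all 18 were enriched in all 4 conditions and 0 were called between genotypes at either stage. Dnmt3a and Dnmt3b, the de novo methyltransferases, were called lower in PILECs of both genotypes, with Dnmt3a at 37.0 RPM in wt and 44.1 in menin-null mESCs, and 17.3 in wt and 9.05 in menin-null PILECs. These 2 were the regulators called in wt cells, and 8 regulators were called lower in menin-null cells, beside 12% and 16.7% of all tested starts.

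Protocadherins outside the cluster are single genes with similar adhesion domains. Of 12 found, 8 were called higher in PILECs of the wt pair and 9 in those of the menin-null pair, beside 5.61% and 4.57% of all tested starts, with 0 lower, and the median log2 ratios were 2.15 and 2.14. Pcdh9 held 2 tags in wt and 1 in menin-null mESCs, and 257 in wt and 236 in menin-null PILECs. Between genotypes 0 of the 12 were called at either stage. Of 15 genes neighbouring the arrays, 0 were called between genotypes, and Dnd1, a germ cell RNA-binding protein gene, was called lower in PILECs of both genotypes, from 8.63 to 0.91 RPM in wt and from 7.68 to 1.47 RPM in menin-null cells, beside 12% and 16.7% of all tested starts. Slc25a2 was called lower in PILECs of the menin-null pair (log2 −2.01) and had a log2 ratio of −1.02 in the wt pair, and Taf7, a general transcription factor gene beside the arrays, held 35.3 to 38.6 RPM in all 4 libraries. Of 12 genes of the H3K4 methyltransferase complexes, 0 were called between genotypes and Psip1 alone was called lower in menin-null PILECs than in menin-null mESCs, beside 16.7% of all tested starts. Of the marker lists, Lum, a fibroblast gene, was called lower in menin-null than in wt PILECs, with 22 tags in wt and 6 in menin-null PILECs.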

How the data were processed

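Per the labels and the study's methods, chromatin was sheared to about 250 bp, precipitated with an H3K4me3 antibody (Upstate) and sequenced, and the reads were aligned to mm9. The authors deposited 1 line per aligned tag of 36 bases, so what was counted here are raw positions without normalization. A deposited alignment score for each line was not used. Between 1.04% and 1.81% of tags in a library listed more than 2 mismatches. The share of H3K4me3 tags that repeated a position was 11.4% in wt and 4.17% in menin-null mESCs, so it was unequal in that pair. It was 11.5% in wt and 11.4% in menin-null PILECs. Both kinds of tag were kept, and alternatives left them out.

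Tags were moved 125 bases towards the fragment middle and counted with Python 3.11.15, numpy 2.4.6, pandas 2.3.3, scipy 1.17.1 and Biopython 1.88; plots used matplotlib 3.10.9. Starts came from the GENCODE mm9 annotation. RPM used library totals. Each condition had 1 library, so ratios carry exact conditional binomial (Clopper-Pearson) 95% intervals and no test. The plan named the most 5′ start of each gene; every distinct start was used, because the annotation merges the alpha and gamma genes, and the planned choice is given as an alternative. The calling procedure was tested on simulated data. The members and gene lists (promoter regulators, other protocadherins, neighbour genes, H3K4 methyltransferase complexes, and pluripotent, islet, neural and fibroblast markers) were chosen with earlier results of these data known. Named were the array-end starts, the first and last of each array, the 5 highest starts and the called starts. No sequence is printed.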

Additional observations from a re-analysis of the deposited data

Results flagged for a closer look

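The ratio between genotypes at the beta starts differed between stages by more than counting error. On the log2 scale menin-null over wt gave −0.81 in mESCs and 0.22 in PILECs, a difference of 1.04 (0.49 to 1.58). The interval covers counting error only, with 1 library per condition, and the mESC ratio rests on 62 and 51 tags, 1.29 times input in wt and 0.69 times in menin-null mESCs. With windows of 2 kb on each side the mESC ratio was 0.0061, and without Pcdhb1 the ratios were −0.74 (−1.40 to −0.09) in mESCs and 0.09 (−0.04 to 0.22) in PILECs.

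Some bins of 1 kb away from every annotated start also carried the mark. The annotation gives 10 alpha and 9 gamma starts where RefSeq lists 14 and 21 genes. Such a bin may therefore hold a start that the annotation lacks, which was not tested. The bins named here were taken among those enriched over the input of the same library. The highest held 11.1 RPM in wt and 10.5 in menin-null mESCs, and 9.22 in wt and 9.10 in menin-null PILECs. In both PILEC libraries this was the bin at 37376939 to 37377938 on chromosome 18, before Pcdhb1, with 173 tags in wt and 161 in menin-null PILECs against 12 and 9 in the inputs, and 7 and 13 tags in wt and menin-null mESCs. In wt mESCs it was the bin at 37873939 with 27 tags, and in menin-null mESCs the bin at 37853939 with 37 tags, both between the first and second gamma starts.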

How the results depend on the processing

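No paired analysis was possible because each condition has 1 library; for the same reason no library was left out. Of the values that answer a comparison, 139 stayed within the 95% interval of the reported value (counts within 1.5 times it; medians by the interval of the sum), 64 moved beyond it, and 1 whose interval excluded 0 turned its sign; of the other values 110, 20 and 6 did. Sums whose interval included 0 are counted as moved where their sign turned and they left it. The cause was not tested. The use of every start, in place of the planned most 5′ start, the sets without the 3 top starts and the stretch 1.5 to 2.25 kb after the start were chosen after seeing the data. In what follows, sums are summed log2 ratios, and mESC and PILEC counts compare menin-null with wt.

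With input division the stage sums were 0.74 in wt and 0.80 in menin-null cells. With 1 tag added to each count the wt stage median was 0.10. With 500-bp windows the mESC and PILEC lower counts were 0 and 0 and the wt stage sum 0.18. With 2-kb windows the mESC sum was 0.12 with 1 higher, the PILEC lower count 0, the stage sums 0.20 in wt and 0.050 in menin-null cells, the menin-null stage higher count 6 and enriched starts in menin-null PILECs 17; the beta mESC ratio was 0.0061 and the alpha menin-null stage ratio −0.069.

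Both alternatives here use 1 start per gene, so their counts are out of 24 starts and not 40. With the start with the most tags of each gene, the mESC sum was −0.32 with 0 lower, PILEC counts 1 higher and 0 lower, the wt stage sum 1.007 with 1 lower, the menin-null stage sum 1.33 with 0 lower, enriched starts 3, 3, 14 and 16, and the alpha PILEC ratio −0.043. With the most 5′ start, the mESC sum was −0.49 with 0 lower, the PILEC sum 0.27 with 0 lower, the wt stage sum 0.63 with 3 higher and 3 lower, the menin-null stage sum 1.39 with 1 lower, enriched starts 3, 3, 14 and 15, and the alpha menin-null stage ratio −0.25.

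Scaled by tags at starts, the mESC sum was −0.35 with 2 lower, the PILEC sum 0.070, and the menin-null stage sum 0.82 with 19 higher and 4 lower. Thinned to the smallest library, the mESC lower count was 2, PILEC counts 1 higher and 0 lower, the wt stage lower count 3, menin-null stage counts 5 higher and 5 lower, enriched starts 9 in wt and 10 in menin-null PILECs, and the alpha PILEC ratio −0.054. Without the 3 top starts, the mESC lower count was 0, the PILEC sum 0.22, the wt stage sum −0.10 with 3 higher, the menin-null stage sum 0.11 and the alpha menin-null stage ratio −0.12.

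At 1.5-fold the PILEC lower count was 2. At 3-fold the mESC lower count was 0, PILEC counts 0 higher and 0 lower, the wt stage higher count 3 and the menin-null stage lower count 4. With at least 5 tags the mESC lower count was 2, and with at least 20 tags enriched starts in menin-null mESCs were 7. Depth limits the mESC comparisons most, since only 20 of 40 starts held 10 tags between genotypes there.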

Other observations

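The cluster was also read in 917 bins of 1 kb. Bins enriched over input numbered 35 in wt and 43 in menin-null mESCs, and 66 in wt and 70 in menin-null PILECs. Of the 120 bins that held a member start or lay within 1 kb of one, 11, 14, 40 and 44 were enriched in the same order, and of the 700 bins away from annotated starts 15, 15, 14 and 16. In the alpha array, 1.5 to 2.25 kb after the start, H3K4me3 held 18 tags in wt and 69 in menin-null mESCs (log2 1.41, 0.64 to 2.24), while the inputs had a log2 ratio of −0.88.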
